A study of Mus musculus with 6 samples.

Results

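The PYHIN p200 genes of the mouse were followed in preadipocyte populations that had been sorted for strong or weak binding of the secreted protein FNDC4. The family was taken as 8 named genes: Ifi203, Ifi204, Ifi205, Ifi202b, Mnda, Mndal, Aim2 and Pyhin1. A gene counted as measured where a transcript cluster, a group of array probes that are read together, carried its symbol and no other. Of the 8 genes, 5 had such a cluster, against 19938 in the whole table. These were Ifi203, Ifi205, Ifi202b, Aim2 and Pyhin1, the last under its current symbol Ifi209. Ifi204 and Mnda, the latter now named Ifi211, had only 1 cluster that carried both symbols. Mndal had no cluster under that symbol, and RefSeq lists the same name as a synonym of Ifi203, so the Ifi203 cluster may read both genes.

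The cells were immortalised cells of the stromal vascular fraction, the part of adipose tissue left after mature adipocytes are removed, taken from inguinal white fat, and the donors were male 129SVE mice. HBC were sorted for high and LBC for low binding of FcsFNDC4, an Fc-tagged soluble form of FNDC4. Rounds of sorting and expansion went on for up to 20 passages, and both populations were used at passage 20. No other treatment separates the groups in the labels. RNA of 3 technical replicates of HBC and 3 of LBC was read on Affymetrix mouse gene arrays, with linear intensities as deposited. Each group stands for 1 sorted population, and p-values therefore measure array-to-array spread only, with no independent sort behind it. For LBC replicates 2 and 3 the source names give high binding, whereas their titles and cell phenotypes give LBC. Over all clusters the median intensity of the 6 arrays lay between 122 and 134.6, and log2 values over all genes correlated at 0.996 to 0.999 within and 0.980 to 0.986 between groups. The arrays were grouped by title, and each main result is also given without those 2 arrays. In RNA from whole populations, fewer cells that express a gene and less RNA per cell cannot be told apart.

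PYHIN proteins join an N-terminal pyrin domain, which binds other proteins, to a C-terminal HIN domain, which binds DNA. Aim2 senses DNA in the cytosol and assembles an inflammasome with the adaptor Pycard and the protease Casp1. Ifi204 can act with Sting1 in the induction of interferon-beta by DNA, and Ifi202b, which lacks a pyrin domain, counters Aim2. Many genes of the family are induced by type I interferon, from which the Ifi symbols derive. In the RefSeq annotation the family lies in 1 stretch of chromosome 1 that holds 13 protein-coding genes, many of them close copies of each other. Signal of near-identical copies cannot be assigned to 1 gene with certainty on arrays, and the probe sequences were not used here.

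Within the family, Ifi203 and Ifi205 were several-fold higher in HBC, Pyhin1 was higher from a dim level, and the cluster shared by Ifi204 and Mnda was just under 2 times higher (a ratio of 1.91). Aim2 and Ifi202b were dim in both groups and did not pass the test. A call needed an adjusted p under 0.05 in limma and a fold above 1.5 on the log2(intensity + 16) scale. By this rule 3 of the 5 members with an own cluster were higher in HBC, where 2.54% of all genes tested were. None of the 5 was lower, where 1.13% of all genes were. Their median log2 fold change was 1.14, which is the value of Pyhin1 itself, beside -0.07 over all genes.

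Ifi203, whose protein resides in the nucleus, read 1980, 2312 and 1821 on the HBC arrays, given in replicate order here and for other genes, against 275, 243 and 155 for LBC. Every HBC array lay above every LBC array, the lowest HBC value being 6.63 times the highest LBC value. HBC averaged 2038 ± 250 (SD, n = 3), against 224 ± 61.9 (SD, n = 3) for LBC, which is a ratio of 9.08. The log2 fold change was 3.12 (SE 0.125, 95% CI 2.87 to 3.38, limma adjusted p = 2.0e-18), which was the 18th largest rise of the 19938 genes. Without LBC replicates 2 and 3 it was 2.81.

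Ifi205 is among the nearest relatives of Ifi204 and has been linked to growth arrest and to adipogenesis. It read 2373, 2744 and 2105 in HBC and 539, 519 and 351 in LBC. The groups were again fully apart. The means were 2407 ± 321 (SD, n = 3) and 469.8 ± 103 (SD, n = 3), a ratio of 5.12, and the log2 fold change was 2.33 (SE 0.116, 95% CI 2.10 to 2.57, limma adjusted p = 3.7e-16). This was the 62nd largest rise, and the change was 2.12 without LBC replicates 2 and 3.

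Ifi204 and Mnda, the first a nuclear and cytosolic sensor of DNA and the second named after the human myeloid nuclear differentiation antigen, could be read only together. Their shared cluster gave 3546, 3800 and 3384 in HBC and 1944, 1843 and 1832 in LBC. It was bright on all 6 arrays, also in LBC, and the groups did not overlap. HBC averaged 3577 ± 210 (SD, n = 3), against 1873 ± 61.6 (SD, n = 3) for LBC. The log2 fold change was 0.93 (SE 0.0774, 95% CI 0.75 to 1.10, limma adjusted p = 0.00011 in a fit over every transcript cluster), and 0.87 without LBC replicates 2 and 3. In that fit 1.88% of the 35556 clusters were called higher. How the rise divides between Ifi204 and Mnda cannot be told apart.

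Pyhin1, listed as Ifi209, read 80.5, 118.5 and 58.7 in HBC and 32.7, 30.9 and 23.6 in LBC. The groups did not overlap, but the HBC arrays spread widely among themselves. The means were 85.9 ± 30.3 (SD, n = 3) and 29.1 ± 4.80 (SD, n = 3), and the log2 fold change was 1.14 (SE 0.128, 95% CI 0.88 to 1.40, limma adjusted p = 3.8e-08), or 1.02 without LBC replicates 2 and 3. As a reference for dim signal, the middle range (10th to 90th percentile) of 1027 olfactory receptor genes, which fibroblast-like cells are not known to express as a class, ran from 13.7 to 83.9 in HBC and from 13.8 to 86.1 in LBC. By its group means Pyhin1 lay within it in LBC and just above it in HBC. Of the HBC arrays only replicate 2 (118.5) exceeded it, while replicates 1 and 3 (80.5 and 58.7) lay inside. The size of its fold therefore depends on the value added before the logarithm, with log2 fold changes of 1.49 and 0.76 for an added 1 and 50. By the methods' t-test, adjusted by the Benjamini-Hochberg method, it did not pass (adjusted p = 0.095).

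Aim2, the inflammasome sensor of the family, read 56.4, 56.7 and 64.6 in HBC and 62.6, 70.1 and 59.0 in LBC. The groups overlapped, with a log2 fold change of -0.09 (95% CI -0.27 to 0.09, limma adjusted p = 0.54), or -0.07 without LBC replicates 2 and 3. Ifi202b read 32.8, 39.3 and 36.0 in HBC and 41.7, 31.2 and 39.9 in LBC, also with overlap. Its log2 fold change was -0.04 (95% CI -0.23 to 0.15, limma adjusted p = 0.81), or -0.15 without those 2 arrays. Both genes stayed inside the olfactory receptor range in each group, so these values do not show whether either was expressed, and the intervals bound only a change in this dim signal.

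**Figure D1:**
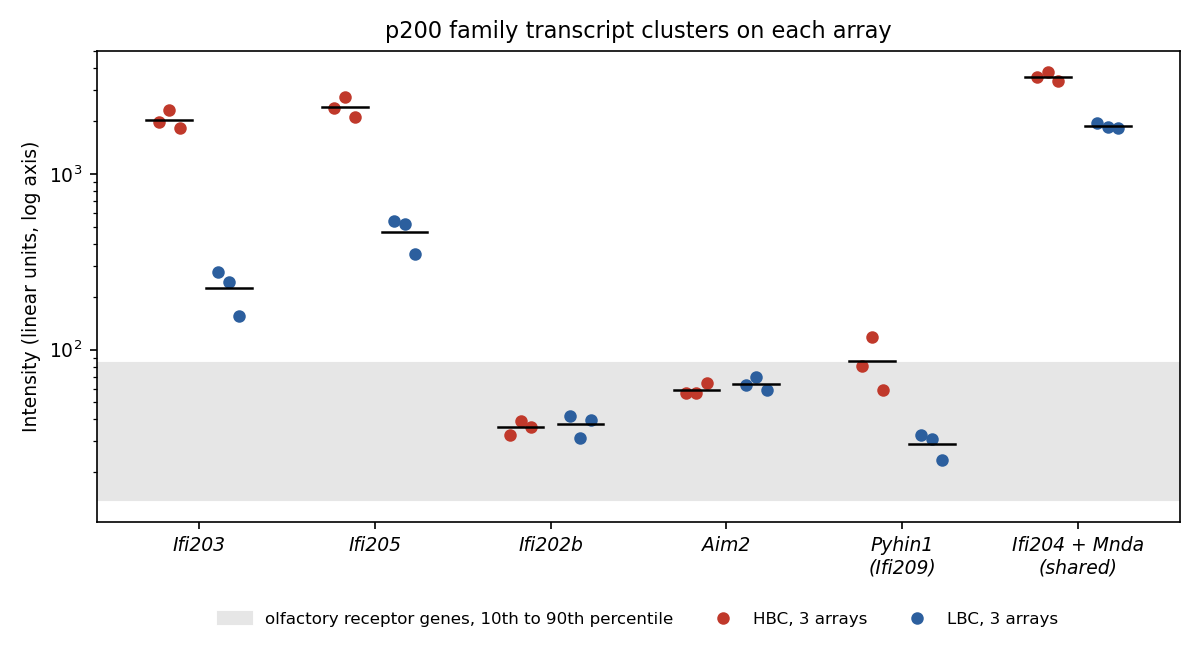
Intensity of each p200 cluster on each array (log axis), with HBC in red, LBC in blue, the 3 arrays of a group as points and the group mean as a line. The grey band is the 10th to 90th percentile of 1027 olfactory receptor genes; Ifi203, Ifi205 and the shared cluster lie above it on every array, Aim2 and Ifi202b inside it, and levels of different clusters are not comparable.

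The size of the rise was compared among the 4 raised clusters. Ratios of 2 clusters within each array were compared between groups for the 6 possible pairs, by an exact two-sided permutation test whose smallest p with 3 against 3 arrays is 0.10. The intensity of Ifi203 over that of Ifi205 was 0.834, 0.843 and 0.865 in HBC and 0.510, 0.468 and 0.442 in LBC. These ratios, which were not themselves tested, did not overlap. The log2 fold change of Ifi203 exceeded that of Ifi205 by 0.79 (exact p = 0.10, adjusted over the 6 pairs 0.12). The rise of Ifi203 also exceeded that of Pyhin1 by 1.98 and that of the shared cluster by 2.20. The rise of Ifi205 exceeded that of Pyhin1 by 1.19 and that of the shared cluster by 1.41. For these 4 pairs too the groups did not overlap (exact p = 0.10, adjusted 0.12). Pyhin1 and the shared cluster differed by 0.21, with overlapping groups (exact p = 0.40). The sizes of the differences from Pyhin1 are uncertain, since its LBC level is dim and its own fold moves with the added value. Those from the shared cluster hold for Ifi204 and Mnda read together and not for either gene. This design cannot reach p under 0.05 in such a test.

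**Figure D2:**
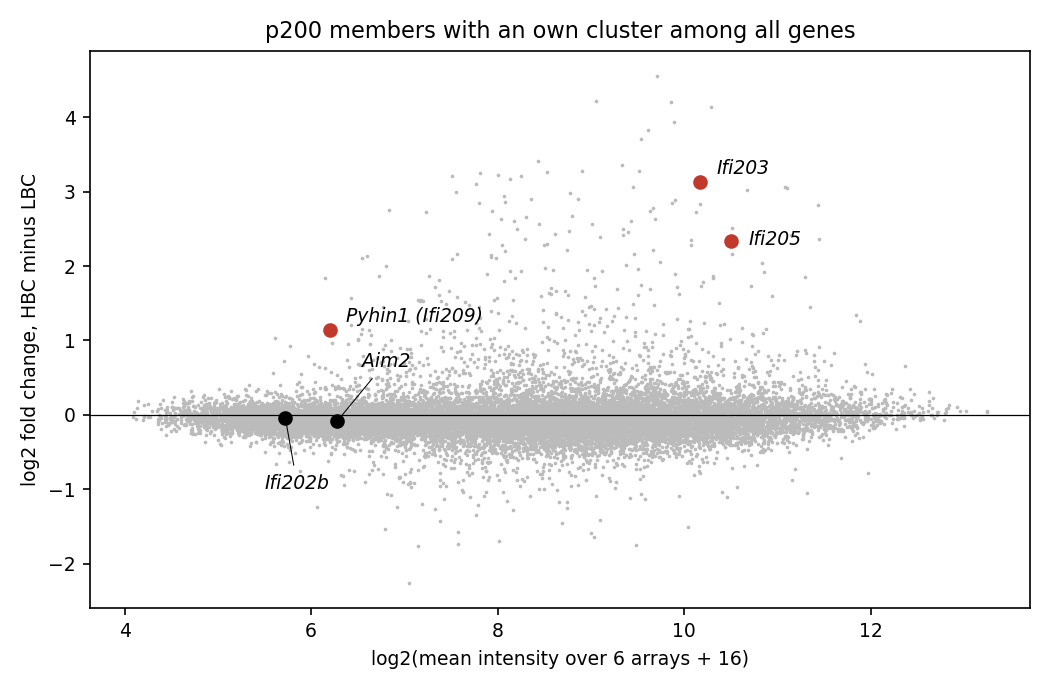
Log2 fold change (HBC minus LBC) against log2 of the mean intensity over the 6 arrays plus 16, for all 19938 genes in grey, with the 5 members that have a cluster of their own marked, red where called higher. Ifi203 (3.12) and Ifi205 (2.33) stand high above the bulk at bright levels, and Pyhin1 (1.14) at a dim one, while Aim2 and Ifi202b lie near 0.

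The promoters were read next because several members rose together and the family is known for its induction by interferon. RefSeq promoter windows of GRCm38.p6, from 250 bases before to 50 bases after the annotated start, were found for 7 of the 8 members, some with more than 1 start, and for 5 further p200 genes of the locus that have an own cluster, Ifi206, Ifi207, Ifi208, Ifi213 and Ifi214. These 5 genes were named after their values had been seen. Both strands were searched for GAAANNGAAA, the core of the interferon-stimulated response element (ISRE) bound by the complex of Stat2 and Irf9 with a further STAT protein and by IRF factors. Of the 7 members, 4 held this core in at least 1 window (Ifi203, Ifi205, Mnda and Mndal), as did all 5 other p200 genes, whereas 3.99% of the 27025 genes with a window and 3.44% of the 32851 windows held it. Because the windows are copies of one another, the 9 genes are not independent cases.

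The stretches of 30 bases around the core are shown, 5′ to 3′ on the strand of the gene, for members and, as comparison, for other genes of the locus. Capitals mark the 10 letters of the core or, in Ifi209, the letters aligned to it. The first 2 lines, those of Ifi203 and Mndal, read the same.
Ifi203, chr1:173942508-173942537, minus strand: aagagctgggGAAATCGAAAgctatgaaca
Mndal, chr1:173880204-173880233, minus strand: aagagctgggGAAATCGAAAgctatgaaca
Ifi207, chr1:173741831-173741860, minus strand: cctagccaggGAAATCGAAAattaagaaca
Ifi213, chr1:173599326-173599355, minus strand: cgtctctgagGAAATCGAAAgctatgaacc
Ifi214, chr1:173536017-173536046, minus strand: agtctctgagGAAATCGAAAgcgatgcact
Ifi205, chr1:174031870-174031899, minus strand: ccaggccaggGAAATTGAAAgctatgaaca
Ifi211 (Mnda), chr1:173913064-173913093, minus strand: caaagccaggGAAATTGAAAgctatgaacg
Ifi209 (Pyhin1), chr1:173630770-173630799, plus strand: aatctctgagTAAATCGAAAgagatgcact

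The exact core GAAATCGAAA occurred in Ifi203, Mndal, Ifi206, Ifi207, Ifi208, Ifi213 and Ifi214, 7 genes of the family, and in only 16 of all 32851 windows. GAAATTGAAA occurred in Ifi205 and in Mnda, and in 38 of all windows. The core began 35 bases before the start in Ifi203, 36 in Mndal, 37 in Mnda and 134 in Ifi205. Ifi205 held a further match on the other strand after its start. The window of a second start of Mndal also held a match on the other strand, 54 bases before that start. In Ifi203 the match belongs to the second of 2 annotated starts, and the window of the first start held none.

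Pyhin1 (Ifi209) had no match, although its window is 95.3% identical to that of Ifi214, which has one. At the aligned place, 79 bases before both starts, Ifi209 carried 1 substitution, G1T, counted from 1 at the 5′ end of the core, with the base of Ifi214 first. Aim2 and Ifi202b also held a best match of 7 of the 8 letters of the core that are not N. Of all windows, 35.4% matched 7 or 8 of these letters. Ifi209 was higher in HBC, whereas Ifi214 read 22.4, 23.6 and 27.8 in HBC and 40.9, 31.5 and 39.7 in LBC, with every HBC array below every LBC array. Its log2 fold change was -0.39 (limma adjusted p = 0.0020), under the fold needed for a call, and within the range of olfactory receptor genes in both groups. The window of Mndal is 90.7% identical to the second window of Ifi203.

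Longer stretches before the start are given for 1 raised gene with the core (Ifi205, 150 bases) and for 1 gene without it (Ifi202b, 100 bases). The stretches differ in length, are read on the minus strand and show the core in capitals. No core was found in the windows of Ifi202b or Aim2, whose dim signal does not show whether either was expressed. Ifi202b held 1 match to TTCNNNGAA, the site of STAT dimers, which 8.30% of all windows held.
Ifi205, chr1:174031756-174031905, minus strand: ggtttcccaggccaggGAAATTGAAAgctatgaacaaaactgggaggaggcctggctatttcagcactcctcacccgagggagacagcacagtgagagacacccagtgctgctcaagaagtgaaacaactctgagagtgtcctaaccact
Ifi202b, chr1:173982845-173982944, minus strand: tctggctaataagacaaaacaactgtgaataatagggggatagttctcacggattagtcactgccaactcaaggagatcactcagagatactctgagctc

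The letters are those of the reference strain, while the cells came from 129SVE mice, whose p200 locus may differ from it. A match is a match of letters and does not show binding, and windows without one may be controlled from elsewhere.

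The 5 further p200 genes and the nearest genes on either side were read in chromosomal order. Of these 5 further p200 genes, 4 were called higher, again beside 2.54% of all genes. Ifi207 read 3784, 4668 and 3247 in HBC and 523, 478 and 375 in LBC, a log2 fold change of 3.04 (SE 0.112). Ifi213 read 166, 241 and 142 in HBC and 13.5, 13.7 and 11.3 in LBC. Its log2 fold change of 2.76 starts from an LBC level below the range of olfactory receptor genes, so its size is uncertain. Ifi206 and Ifi208 had log2 fold changes of 1.86 and 1.34, from LBC levels within that range. Taken with the members, 8 of 11 p200 clusters were called higher, and those that were not were Aim2, Ifi202b and Ifi214.

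None of the 6 nearest genes with an own cluster, 3 on either side, was called. With 2.54% of all genes called higher and 1.13% lower, a list this short would be near 0 calls. The 6 genes were Olfr418, the chemokine receptor gene Ackr1 and the adhesion gene Cadm3 on the side of Aim2, and Olfr433, Olfr432 and Olfr430 on the side of Ifi205. Their log2 fold changes lay between -0.15 and 0.11. All 6 were dim, with means from 51.3 to 89.6 in HBC, so a change in these genes could have gone unseen. Aim2 lies next to Cadm3 at the edge of the family, whereas Ifi202b lies between Ifi203 and Ifi205, both of which rose.

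**Figure D3:**
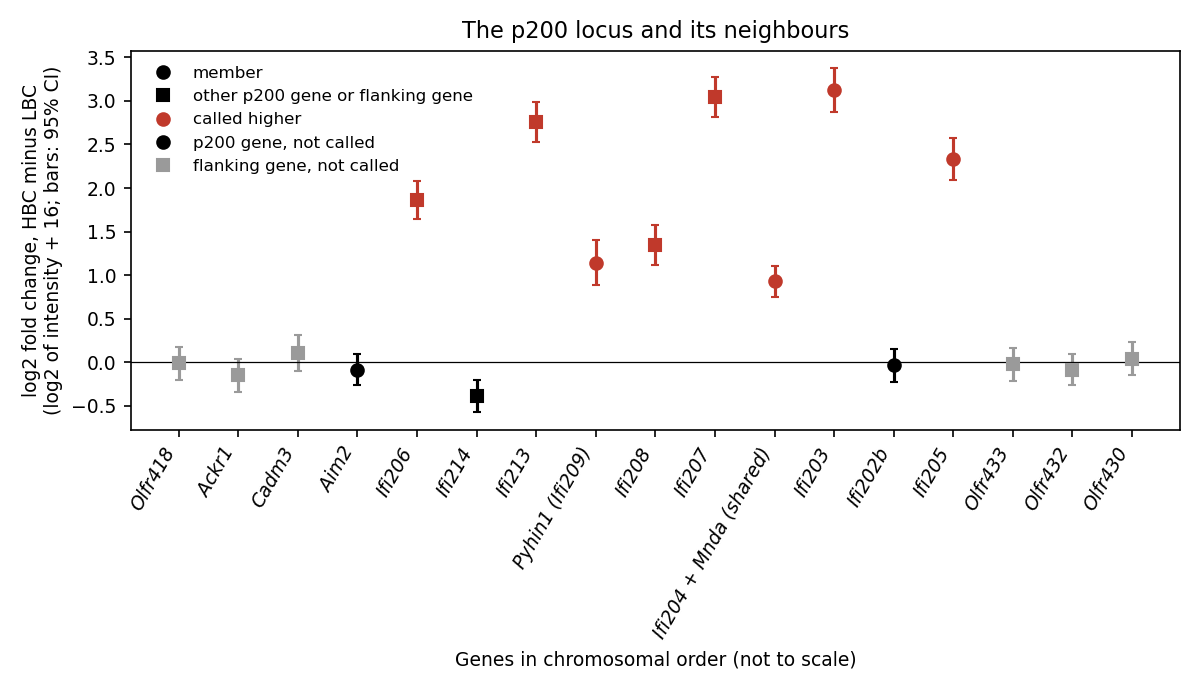
Log2 fold change (HBC minus LBC) with its 95% confidence interval for the 11 p200 clusters and the 3 genes on either side, in chromosomal order and not to scale, with members as circles and other genes as squares. The 8 clusters in red were called higher; Aim2, Ifi214 and Ifi202b, in black, were not, nor were the 6 flanking genes in grey.

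The arrays of a group differed in the same way for most of the raised clusters. In all 8 of them HBC replicate 2 was the highest HBC array and HBC replicate 3 the lowest, and in 7 of them, Ifi206 being the exception, LBC replicate 3 was the lowest LBC array. Over all genes HBC replicate 2 was the highest HBC array in 37.8% and HBC replicate 3 the lowest in 41.1%, but among the genes called higher these shares were 79.5% and 78.7%. LBC replicate 3 was the lowest LBC array in 38.8% of all genes and in 37.9% of the genes called higher. The array order within HBC was therefore shared with most genes that were called higher. LBC replicates 2 and 3, whose source names conflict with their titles, lay with LBC replicate 1 and far from HBC for Ifi203 and Ifi205. Whether handling of single replicates had a part in these values was not tested.

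**Figure D4:**
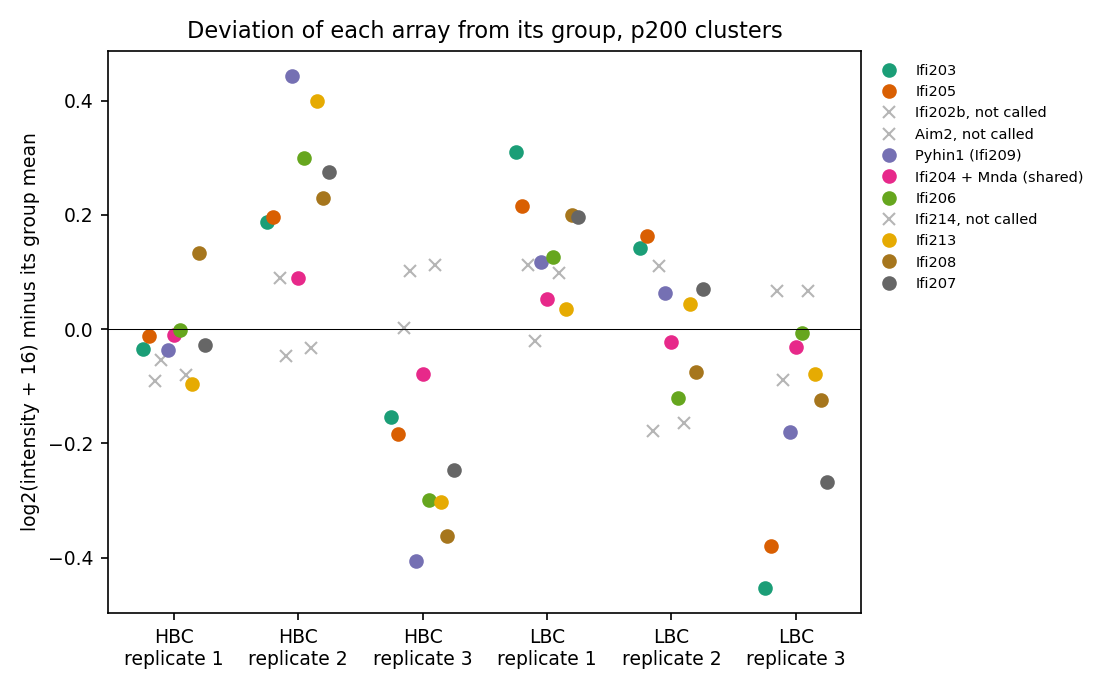
Deviation of each array from the mean of its group, in log2(intensity + 16), for the 11 p200 clusters, with coloured circles for the 8 called higher and grey crosses for Ifi202b, Aim2 and Ifi214. Every circle of HBC replicate 2 lies above 0 and every circle of HBC replicate 3 below it.

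Genes whose log2 values ran most like those of Ifi205, the brightest called member with a cluster of its own, were sought by Pearson's r over the 6 arrays, as a description that rests mainly on the gap between the groups. The 5 most alike were Tnfsf10, the gene of the death ligand TRAIL, Oasl2, of the 2-5A synthetase-like proteins, BC023105, Phf11d and Usp18, which removes ISG15 from proteins. All had r of 0.999 or above. Their log2 fold changes were 1.58, 3.06, 4.22, 2.73 and 2.37, of which those of Tnfsf10 and BC023105 are uncertain in size, since their LBC means (27.4 and 40.2) lay inside the olfactory receptor range. Within the family Ifi203 followed Ifi205 with r = 0.999 and Ifi207 with r = 0.997, whereas r was -0.45 for Aim2, -0.20 for Ifi202b and -0.91 for Ifi214.

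Genes that work with p200 proteins or beside them were read from lists, in which single genes were called. Each count below stands beside 2.54% of all genes called higher and 1.13% called lower, and each median beside -0.07 over all genes. Of 25 genes of cytosolic DNA sensing and nucleic acid clearance, 4 were higher and none lower, with a median log2 fold change of -0.16. Those 4 were Zbp1, a sensor of Z-form nucleic acid (3.17), the RNA editing enzyme Adar (1.33), the DNA exonuclease Trex1 (1.14) and the dNTP hydrolase Samhd1 (0.71). Zbp1 read 487, 628 and 355 in HBC and 45.0, 41.2 and 31.8 in LBC, the latter inside the olfactory receptor range, so the size of its fold is uncertain.

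The central enzyme and adaptor of DNA sensing were not called. Cgas, which makes the second messenger cGAMP from DNA contact, averaged 186 ± 7.85 (SD, n = 3) for HBC against 183 ± 15.3 (SD, n = 3) for LBC, with overlap. Sting1, its receptor and the partner of Ifi204, averaged 1598 ± 117 (SD, n = 3) and 1363 ± 82.7 (SD, n = 3), a log2 fold change of 0.23 (limma adjusted p = 0.071). It was bright in both groups, and its HBC arrays lay above its LBC arrays by a small margin.

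For the inflammasome, the machine that Aim2 starts, 24 of 26 listed genes were measured, 3 were higher and none lower, with a median of -0.02. The 3 were Il1rn, the antagonist of the interleukin-1 receptor (1.63), and Naip6 (0.93) and Naip2 (0.88), sensors of bacterial proteins. Naip6 averaged 55.8 in HBC and 21.7 in LBC, inside the olfactory receptor range in both, and Naip2 (75.8) was inside it in LBC, so the size of these folds is uncertain. Pycard, the adaptor of Aim2, had a log2 fold change of -0.11 with overlap. Casp1 read 19.3, 25.3 and 27.0 in HBC and 33.1, 32.5 and 29.8 in LBC. All its HBC arrays lay below its LBC arrays (log2 fold change of -0.27, limma adjusted p = 0.036), but the fold was under that of a call and the level was within the range of olfactory receptor genes. Of 21 measured genes for proteins that p200 proteins are known to bind, 1 was called, Cebpa, a transcription factor of adipocyte differentiation (0.85, higher), and the median was -0.06. A single call among so few genes is near the share over all genes.

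In the interferon-beta list, 3 factors that carry or amplify the signal of the interferon receptor were higher. Ifnb1, the only ligand gene listed, was not called. Of 11 measured genes of interferon-beta and the factors downstream of its receptor, 3 were called higher, with a median of 0.29. Stat2 read 1772, 1935 and 1619 in HBC and 366, 377 and 272 in LBC, a log2 fold change of 2.35, close in size to that of Ifi205. Irf9, the DNA-binding partner of Stat2, rose by 1.71, and Irf7, which amplifies interferon transcription, by 3.36. Ifnb1 itself averaged 65.5 ± 6.03 (SD, n = 3) for HBC against 64.9 ± 11.7 (SD, n = 3) for LBC, inside the olfactory receptor range, with a log2 fold change of 0.02. These values do not show whether Ifnb1 was expressed. Whether these factors had a part in the rise of p200 genes was not tested.

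Since p200 genes are abundant in macrophages and lymphocytes, marker lists of other cells of the stromal vascular fraction were read beside them. None of 18 macrophage and myeloid markers was called (median log2 fold change of -0.12), and their summed intensity ran from 1404 to 1513 in HBC and from 1575 to 1708 in LBC. The sum was thus lower on every HBC array than on any LBC array, while the median of all clusters was also lower on HBC replicates 1 and 2 (124 and 122) than on any LBC array (131 to 134.6). Ptprc, the pan-leukocyte gene, averaged 59.8 in HBC and 69.9 in LBC, and Lyz2, a macrophage lysozyme gene, 30.9 and 38.8, all within the range of olfactory receptor genes. None of 9 lymphocyte markers was called either (median -0.06), with sums from 651 to 716 in HBC and from 702 to 785 in LBC. The same held for 8 endothelial markers (median -0.08), with sums from 603 to 689 and from 596 to 728. At the share called over all genes, lists this short would be near 0 calls.

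Of the markers of the labelled cells, Pdgfra, Col6a1, Col3a1 and Eng were bright in both groups. Of 17 measured stromal preadipocyte markers, 4 were higher and none lower, with a median of 0.33. These were Ebf2 (0.87), Col6a1 (0.83), Col3a1 (0.80) and Eng (0.78). Among the markers not called, Cd34 (-0.45), Thy1 (-0.14), Dlk1 (-0.13), Cd44 (-0.11) and Itgb1 (-0.02) lay below 0. Pdgfra, the defining receptor of these cells, averaged 4096 ± 265 (SD, n = 3) for HBC against 3166 (SD 279.8, n = 3) for LBC. Its log2 fold change of 0.37 was under the fold of a call. The summed intensity of the list ran from 37104 to 42014 in HBC and from 29836 to 34843 in LBC. Its part in the rise of p200 genes was not tested.

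**Figure D5:**
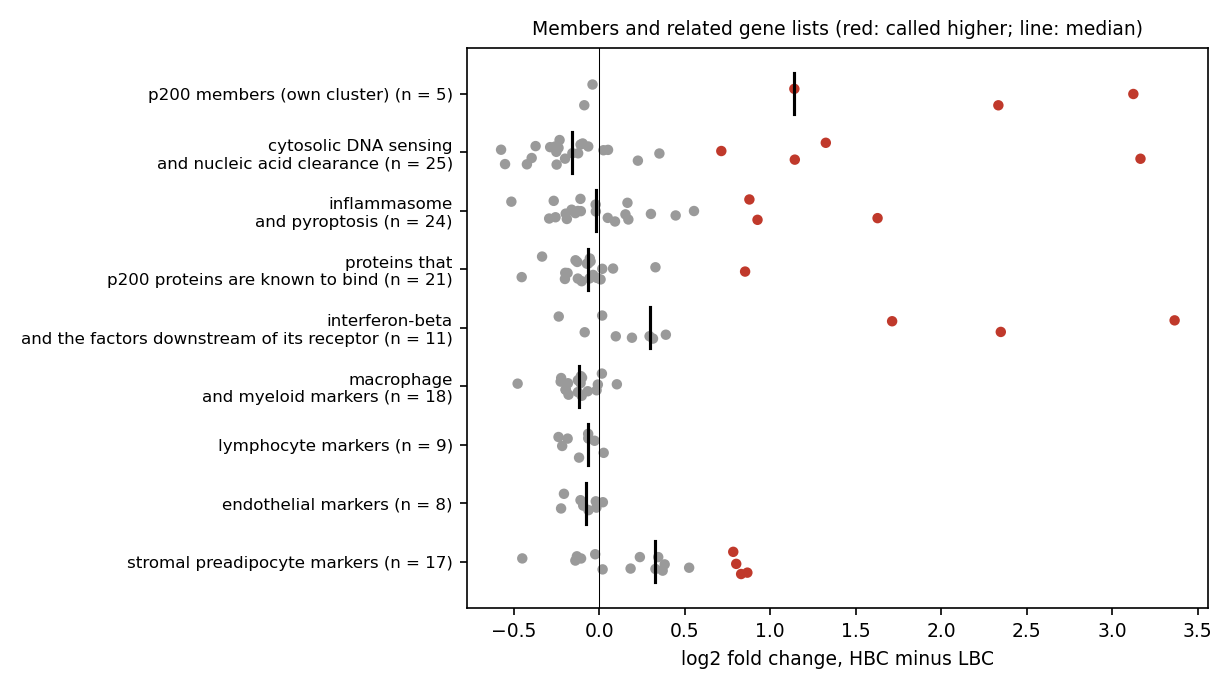
Log2 fold change (HBC minus LBC) of each gene with an own cluster in the p200 family and the 8 related lists, with called genes in red, genes not called in grey and the median of a list as a black line. The p200 median of 1.14, which is the value of Pyhin1 with its dim LBC level, is the highest. The medians of the other lists lie between -0.16 and 0.33, with single called genes such as Irf7 (3.36) and Zbp1 (3.17) far to the right.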

How the data were processed

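Intensities on a linear scale were deposited for 35556 transcript clusters on 6 arrays, summarised by the authors in Affymetrix Expression Console per the labels. Not given in the sources used here were its version, the summary method, the normalization and the genome build. While an array of version 2.0 is named in the methods, the identifiers matched an older annotation. That annotation gave 1 symbol to 21789 clusters, several to 1621 and none to 12146, and 21698 of the first matched RefSeq by gene identifier, through which older symbols were updated. The brightest cluster stood for a gene. Log2(intensity + 16) was compared between HBC and LBC by lmFit and eBayes of limma 3.58.1 (R 4.3.3), without a block, adjusted by the Benjamini-Hochberg method over 19938 genes, or over every cluster for the shared cluster. The fit had 24.9 prior and 4 residual degrees of freedom, so the exponents of very small p-values carry little meaning. The test was also run on simulated log2 values with noise drawn independently for each gene. Such values hold no array effect shared by genes and no spread between sorts. Promoters and alignments were read with Biopython 1.88. Members and lists were chosen with earlier results of these data known. Named were all members, the largest called changes per list, a few fixed genes whatever their value, and the nearest genes outside the locus. Alternatives were other normalizations, intensity filters, added values, variance priors, cluster choices, thresholds, the methods' t-test and leaving out arrays. The number of arrays limits the precision. Scanner files, probe sequences, protein sequences and sequence of the 129SVE strain were not used here.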

Additional observations from a re-analysis of the deposited data

How the results depend on the processing

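Over the alternatives run, Ifi203 and Ifi205 remained higher in HBC and past the threshold in each, with log2 fold changes from 2.81 to 3.28 and from 2.12 to 2.44 (adjusted p at most 0.014 and 0.018). Pyhin1 ranged from 0.76 to 1.49 and did not pass under the methods' t-test (1.14, adjusted p = 0.095). With a fold above 2 the shared cluster of Ifi204 and Mnda was no longer called (0.93). Ifi202b, which was never called, turned from -0.04 to 0.025 under quantile normalization, 0.031 under cyclic loess and 0.0056 under median centring. Leaving out each array in turn gave 2.90 to 3.28 for Ifi203, 2.14 to 2.44 for Ifi205, 0.92 to 1.34 for Pyhin1, 0.88 to 0.97 for the shared cluster, -0.14 to -0.03 for Aim2 and -0.13 to 0.02 for Ifi202b, which was above 0 at 0.0067 without HBC replicate 1 and at 0.017 without LBC replicate 1. The cause was not tested. A filter at a mean intensity of 100, in both groups or in at least 1, left 2 members, both higher. The count of 3 members called became 2 under these filters and under the methods' t-test, and was 3 otherwise. Leaving out LBC replicates 2 and 3 together was chosen after seeing the data, and its lone LBC array is assumed to vary like the HBC arrays. Same-numbered arrays did not deviate together (r = -0.10, -0.24 and -0.50), so the numbers do not pair them. With a replicate block Ifi203 was at 3.12, which this balanced design fixes in advance, since a block cannot move a fold change in it. The block left 507 genes called higher and 225 lower, as without it. Without a fold threshold 1381 genes were higher and 2274 lower, and with a fold above 2, 236 and 44. Under the 3 normalizations and the leaving out of single arrays, the settings run for the other lists, their called genes numbered 4 to 6 for DNA sensing, 3 to 4 for the inflammasome and 4 to 5 for stromal markers, with constant numbers for the rest. Dim signal limits what Aim2, Ifi202b and Pyhin1 can show.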
